A study of Mus musculus with 20 samples.

Results

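The genes described here are 8 genes of Schwann cells and myelin, Gldn, Prx, Mag, Sox10, Pmp22, Mbp, Cnp and Cadm4, of 14793 genes measured in mouse knee joints. They were picked by gene symbol. Gldn was chosen by its place in the study's own gene lists for STING-MSC against MSC and for STING-MSC against TLR3-MSC, so its values in those comparisons are given as a description with no test, and its other comparisons share joints with them. The other 7 genes were chosen as nerve genes to set beside Gldn, with results of these data known, and are given with no test in STING-MSC against MSC.

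The libraries came from 20 right knee (stifle) joints of male C57BL/6Nci mice that entered the study at 12 weeks of age. Osteoarthritis had been started in these joints by destabilization of the medial meniscus (DMM), a cut of the ligament that anchors the meniscus. Each group held 10 mice, of which 5 were sequenced. Control joints received needle insertion alone. MSC joints received adipose-derived mesenchymal stromal cells that were not activated, TLR3-MSC joints the same kind of cell activated with polyI:C, an agonist of the RNA sensor TLR3, and STING-MSC joints cells activated with cGAMP, the ligand of the DNA sensing adaptor STING. Injections were given at weeks 3 and 5 after surgery, and the cells came from a pooled donor stock, so donor variation cannot be seen. All 4 groups share the surgery, and there was no joint without it. The study gives conflicting times for the collection of the joints, so none is stated here. Cartilage, synovium, capsule and adjacent bone went into 1 sample per mouse, and fewer cells of a type and less RNA per cell cannot be told apart in such samples. The libraries held 27955496 to 52529973 reads on the genes of the table. Values are counts normalized by the authors for library size. MSC replicate 5 listed 296 genes at 0, against 0 to 97 in the other libraries, though none of the 8 genes was at 0 in any joint.

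Schwann cells wrap the axons of peripheral nerves in myelin, which lets impulses jump between the gaps called nodes of Ranvier. Gldn encodes gliomedin, an extracellular protein that Schwann cells place at the node, where it binds the axonal adhesion molecules encoded by Nfasc (neurofascin) and Nrcam (NrCAM) and helps to gather sodium channels. Sox10 is the transcription factor that keeps Schwann cells in their lineage. Prx (periaxin), Mag (myelin-associated glycoprotein), Pmp22, Mbp (myelin basic protein) and Cnp (a cyclic nucleotide phosphodiesterase of myelin) build or organize the sheath, and Cadm4 is an adhesion molecule by which Schwann cells hold the axon along the internode. Several are not particular to nerve. Pmp22 is transcribed in fibroblasts, Cnp in many cell types, and the Mbp locus also gives transcripts in blood-forming cells.

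All 8 genes lie on GRCm39 as protein-coding genes. Gldn spans 54193770 to 54249071 on chromosome 9, Prx 27196813 to 27219640, Mag 30598601 to 30614299 and Cadm4 24181448 to 24203965 on chromosome 7, and Sox10 79039108 to 79049441 on chromosome 15. On chromosome 11 Pmp22 spans 63019808 to 63050374 and Cnp 100465730 to 100482556. GENCODE places antisense non-coding genes across Gldn, Prx, Mag and Mbp, a processed pseudogene on the other strand within Mbp, and the protein-coding gene Dnajc7 on the other strand across Cnp. Whether the counting used strand is not given in the sources used here, so reads of these partners cannot be told apart from theirs.

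The sequences just before the transcription start are shown for Gldn and for 3 genes that stood in different relations to it across joints, Prx, Mag and Cnp. They are the 250 bases before the start in RefSeq's table for GRCm38.p6, an older build than that of the counts, and capitals mark ACAAAG on either strand, the core of a site for SOX factors. Gldn is read from chr9:54286236-54286485 (plus strand), Prx from chr7:27499074-27499323 (plus), Mag from chr7:30914923-30915172 (minus) and Cnp from chr11:100574689-100574938 (plus).
Gldn: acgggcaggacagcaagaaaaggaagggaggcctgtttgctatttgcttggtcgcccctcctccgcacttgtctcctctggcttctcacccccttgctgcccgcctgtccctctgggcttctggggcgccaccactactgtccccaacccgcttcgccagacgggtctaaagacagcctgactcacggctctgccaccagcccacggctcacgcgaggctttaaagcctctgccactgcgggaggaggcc
Prx: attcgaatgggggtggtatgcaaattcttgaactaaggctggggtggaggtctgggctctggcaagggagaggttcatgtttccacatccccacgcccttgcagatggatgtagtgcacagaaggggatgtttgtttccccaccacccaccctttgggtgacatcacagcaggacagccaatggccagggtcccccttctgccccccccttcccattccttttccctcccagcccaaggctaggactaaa
Mag: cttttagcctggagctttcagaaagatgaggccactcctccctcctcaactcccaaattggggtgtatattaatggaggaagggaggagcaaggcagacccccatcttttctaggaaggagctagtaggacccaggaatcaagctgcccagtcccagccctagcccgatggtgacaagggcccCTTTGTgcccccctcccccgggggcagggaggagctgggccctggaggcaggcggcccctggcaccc
Cnp: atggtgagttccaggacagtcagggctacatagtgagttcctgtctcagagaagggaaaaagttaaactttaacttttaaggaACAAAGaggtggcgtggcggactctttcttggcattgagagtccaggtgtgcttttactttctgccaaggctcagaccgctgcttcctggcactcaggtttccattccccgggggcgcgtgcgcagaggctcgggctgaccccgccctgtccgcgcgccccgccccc
The search also covered ACAATG, a related SOX core, and GTGGGCG, the core of a site for EGR factors, both strands each. At least 1 of the 3 motifs was found in windows of 3 genes (Mag, Cnp and Cadm4) of the 6 of this set that were searched. These were 4 of 11 windows, of which a pair are overlapping Mag windows with the same ACAAAG, and the third Mag window held none. The windows of Nfasc and Nrcam, searched beside them, held none. Over 32851 RefSeq windows of the same length, 16.5% held ACAAAG, 10.7% held ACAATG and 7.02% held GTGGGCG. The share of those windows with at least 1 of the 3 was not counted, so the 4 of 11 cannot be set against it. Mag and Cnp each hold 1 ACAAAG in the windows shown, and Gldn and Prx hold none of the 3.

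Gldn varied far more between joints than any other of the 8 genes. Its normalized counts in control joints were 26.5, 197, 1258, 1354 and 100.7. In MSC joints they were 32.8, 679, 21.9, 14.0 and 262, and in TLR3-MSC joints 43.0, 292, 56.3, 38.3 and 398. In STING-MSC joints they were 40.6, 36.7, 24.0, 17.5 and 19.2. Counts above 100 were found in 4 control, 2 MSC, 2 TLR3-MSC and 0 STING-MSC joints, and the lowest control joint lay inside the STING-MSC range. The highest joint held 96.6 times the count of the lowest, and the SD of its log2 values within groups, 1.90, was higher than that of 99.7% of genes (median of all genes, 0.260).

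**Figure D1:**
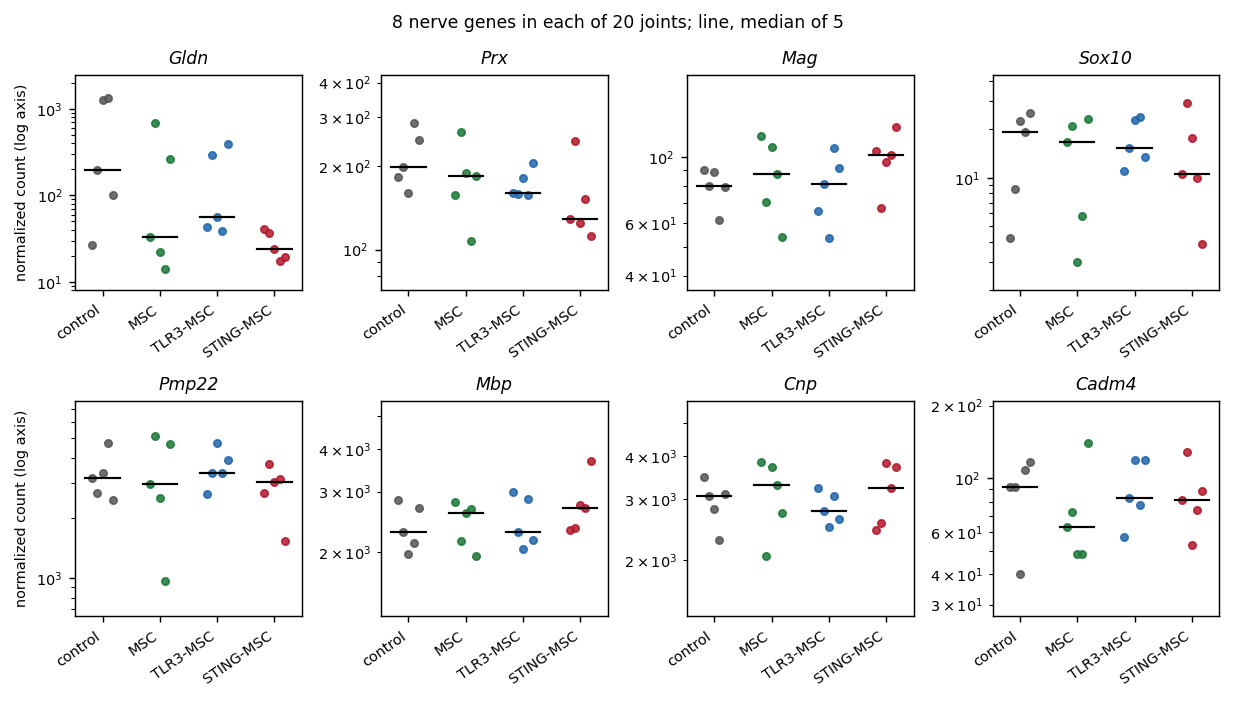
Normalized counts (log axis) of the 8 nerve genes in each joint, 5 joints per group, with a line at the group median. Gldn spans from 14.0 to 1354 and is low in every STING-MSC joint, and the groups of the other 7 genes overlap.

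Against control, the log2 fold change of Gldn was −3.19 ± 1.11 (SE, n = 5 joints per group) in STING-MSC joints. Its unadjusted p was 0.00978 and its adjusted p 0.329 in limma (Benjamini-Hochberg over all genes), and an exact two-sided permutation test gave p = 0.0238. In limma the unadjusted p was below the threshold and the adjusted p was not. The lowest control joint lay inside the STING-MSC range. Gldn was chosen through these same STING-MSC joints, so the p-values are not independent of that choice. In DESeq2 on the recovered reads the log2 fold change was −4.41 with an adjusted p of 0.0142 and in edgeR −4.42 with an adjusted p of 0.283. DESeq2 called 0.183% of genes lower in this comparison. Over 29 alternative settings the adjusted p ran from 0.0142 to 0.829. Gldn was also lower against control in MSC (log2 fold change −1.77 ± 1.11, limma adjusted p = 0.675) and in TLR3-MSC joints (−1.27 ± 1.11, limma adjusted p = 1.00), neither past the threshold. Without MSC replicate 5 the value for MSC joints was −2.23 (limma adjusted p = 0.417). These 3 comparisons share the control joints. TLR3-MSC and MSC joints differed by 0.50 ± 1.11 on the log2 scale (limma adjusted p = 0.981), a difference that is negative in edgeR and in DESeq2. The differences of the comparisons that chose Gldn were −1.43 for STING-MSC against MSC and −1.93 for STING-MSC against TLR3-MSC.

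Among the other genes, Prx came nearest to the pattern of Gldn between groups. Periaxin links the Schwann cell membrane to its cytoskeleton. Its counts were 182, 198, 160, 285 and 248 in control joints and 129, 246, 125, 152 and 112 in STING-MSC joints. In 4 of 5 STING-MSC joints Prx lay under every control joint, and the remaining joint stood at the upper end of the control range. The log2 fold change was −0.51 ± 0.23 (limma, unadjusted p = 0.0373, adjusted p = 0.386; exact permutation test, p = 0.0714). It was −0.28 ± 0.23 in MSC joints (limma adjusted p = 0.726) and −0.29 ± 0.23 in TLR3-MSC joints (limma adjusted p = 1.00). The MSC counts of Prx ran from 107 to 264 and the TLR3-MSC counts from 157 to 206.

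Sox10, the least abundant of the 8, is a factor on which the myelin program depends. Its counts were 4.23, 8.46, 22.6, 19.2 and 25.2 in control, 16.8, 21.0, 2.98, 5.77 and 23.4 in MSC, 10.96, 15.4, 22.8, 23.8 and 13.6 in TLR3-MSC and 10.5, 29.4, 17.7, 10.0 and 3.84 in STING-MSC joints. The 4 groups overlapped throughout. Its log2 fold changes against control were −0.25 ± 0.58 in MSC, 0.29 ± 0.58 in TLR3-MSC and −0.17 ± 0.58 in STING-MSC joints (limma adjusted p = 0.900, 1.00 and 0.936). The lowest library held 3 reads of Sox10, so single joints are imprecise.

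Mag, an adhesion receptor of the inner myelin membrane, went the other way from Gldn in STING-MSC joints without passing a test. Its counts were 90.0, 79.7, 89.2, 61.2 and 78.9 in control and 105, 67.3, 95.9, 101.2 and 126 in STING-MSC joints. In 4 of 5 STING-MSC joints Mag lay above every control joint, with a log2 fold change of 0.29 ± 0.23 (limma adjusted p = 0.620; exact permutation test, p = 0.151). Mbp had a log2 fold change of 0.20 ± 0.15 (limma adjusted p = 0.592) and Cnp one of 0.09 ± 0.17 (limma adjusted p = 0.873) in the same comparison. Mbp counts ran from 1969 to 2825 in control and from 2309 to 3687 in STING-MSC joints, and Cnp counts from 2292 to 3487 and from 2443 to 3826. Over all 20 joints the highest count was 1.90 times the lowest for Mbp and 1.87 times for Cnp. In MSC and in TLR3-MSC against control the log2 fold changes of Mag, Mbp and Cnp lay between −0.047 and 0.088 (limma adjusted p from 0.912 to 1.00).

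Pmp22, a membrane protein of compact myelin, had log2 fold changes against control of −0.18 ± 0.35 in MSC, 0.15 ± 0.35 in TLR3-MSC and −0.23 ± 0.35 in STING-MSC joints (limma adjusted p = 0.876, 1.00 and 0.825). Its lowest joints were MSC replicate 4, at 968, and STING-MSC replicate 5, at 1530, against 2449 to 4714 in control joints. Cadm4 had log2 fold changes of −0.30 ± 0.33, 0.05 ± 0.33 and −0.05 ± 0.33 (limma adjusted p = 0.782, 1.00 and 0.970), with counts from 40.2 to 139 over all joints.

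**Figure D2:**
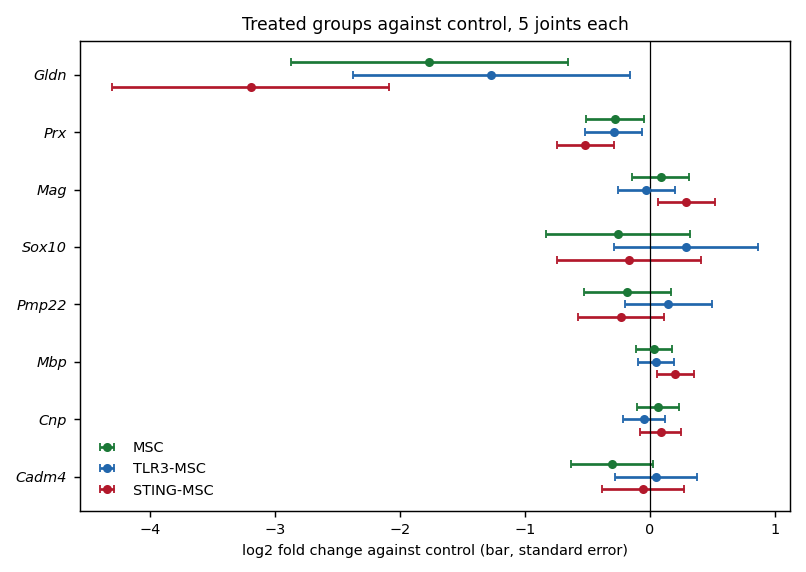
Log2 fold change of the 8 genes in MSC, TLR3-MSC and STING-MSC joints against control (5 joints each), with standard errors from limma. Gldn lies at −1.77, −1.27 and −3.19, and the other 7 genes lie between −0.51 and 0.29.

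Counted over the 8 genes, 2 (Gldn and Prx) reached an unadjusted p no greater than 0.05 in STING-MSC against control, both lower, where limma gave 12.2% of all genes such a p in either direction and 5.69% lower. Gldn was chosen through these same STING-MSC joints, and of the other 7 genes only Prx reached it. In MSC against control and in TLR3-MSC against control the count was 0 of 8, beside 8.55% and 3.58% of all genes. It was 0 of 8 in TLR3-MSC against MSC (3.88% of all genes) and 0 of 7, Gldn left out, in STING-MSC against TLR3-MSC (2.57%). At an adjusted p of at most 0.05 limma called 0 of these genes in the 5 comparisons, beside 0.00676% of all genes in MSC against control and 0% in the other 4. The count at the adjusted threshold was also 0 in edgeR, and in DESeq2 it was 1, Gldn in STING-MSC against control.

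Per kilobase of exon the means of the 8 genes differed widely, though the joints of several genes overlapped. The mean normalized count per kilobase over 20 joints was 787 for Pmp22 and 747 for Cnp, whose joints overlapped (236 to 1248 and 509 to 953). Mbp followed at 257, with joints from 199.1 to 378. Gldn had a mean of 51.0 per kilobase, yet its joints ran from 2.91 to 281, across the whole range of Cadm4 (mean 36.6), Prx (31.8) and Mag (17.4). Sox10 stood lowest at 4.62.

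Whether Gldn followed the nerve genes from joint to joint was asked with the group means subtracted, so that group differences could not carry a relation. The answer differed by gene. Pmp22 rose with Gldn (Pearson r = 0.61, p = 0.0109; Spearman rho = 0.60, p = 0.0126; 100000 permutations within groups, n = 20 joints; limma adjusted p = 0.0152). Cnp fell as Gldn rose (r = −0.74, p = 0.0002; rho = −0.70, p = 0.00067; permutation, n = 20 joints; limma adjusted p = 0.00201), and so did Mbp (r = −0.71, p = 0.00076; rho = −0.69, p = 0.00155; permutation; limma adjusted p = 0.00338). The other 4 did not pass the test. Sox10 had r = 0.54 (p = 0.0378; rho = 0.50, p = 0.0553; permutation; limma adjusted p = 0.0530), Prx r = 0.45 (p = 0.0696; rho = 0.34, p = 0.177; permutation; limma adjusted p = 0.115), Mag r = −0.37 (p = 0.151; rho = −0.36, p = 0.163; permutation; limma adjusted p = 0.238) and Cadm4 r = 0.20 (p = 0.483; rho = 0.21, p = 0.406; permutation; limma adjusted p = 0.535).

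The share of all genes that pass the same test is large. Of the 14792 other genes, 21.3% rose with Gldn and 19.1% fell as it rose at an adjusted p of at most 0.05, so 1 of 7 positive and 2 of 7 negative calls stand beside these shares. The r of Pmp22 was exceeded by 2741 genes and that of Prx by 3875. Without the 2 joints farthest from the median Gldn, control replicates 3 and 4, r was 0.59 for Pmp22, −0.72 for Cnp, −0.65 for Mbp, 0.47 for Sox10, 0.57 for Prx, −0.38 for Mag and 0.54 for Cadm4. Leaving out MSC replicate 2 took Pmp22 out of the calls (r = 0.51, limma adjusted p = 0.0701), and leaving out control replicate 3 brought Prx in (r = 0.62, limma adjusted p = 0.0238). Sox10 was the least stable, called in 6 of the 20 fits with 1 joint left out (limma adjusted p from 0.0273 to 0.173). Without MSC replicate 5 r was 0.57 for Pmp22, −0.73 for Cnp and −0.69 for Mbp, and each stayed past the threshold (limma adjusted p = 0.0326, 0.00339 and 0.00786).

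**Figure D3:**
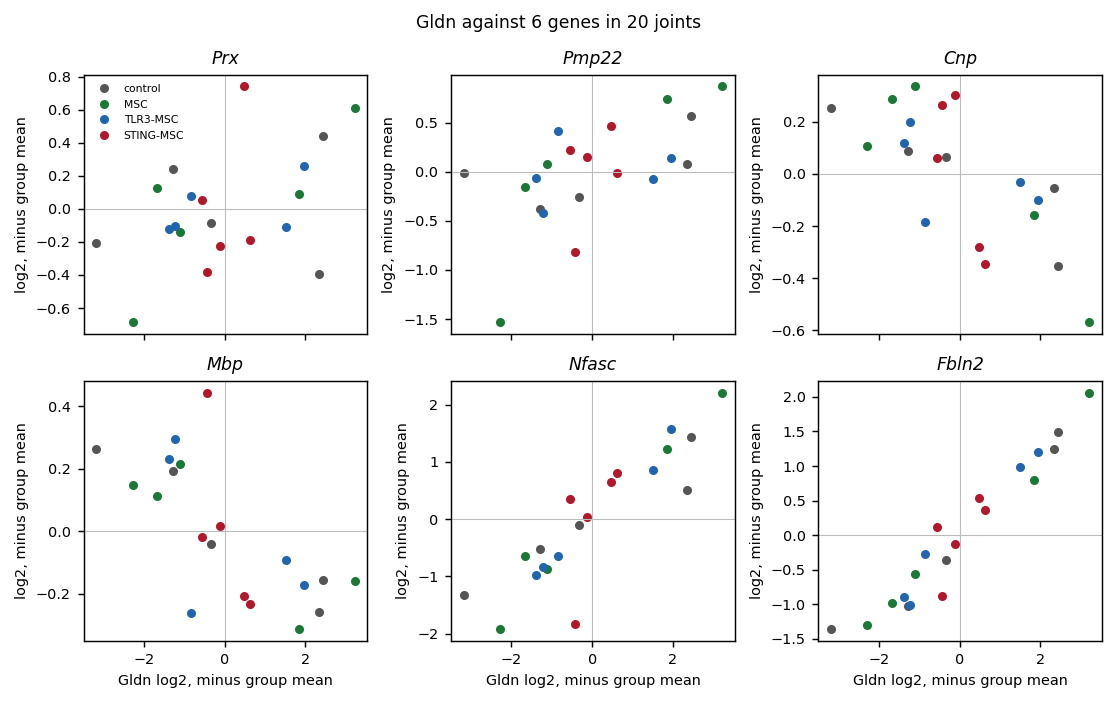
Log2 normalized counts of 6 genes against those of Gldn in 20 joints, each minus its group mean, with colours for the groups. Points lie close to a rising line for Fbln2 (r = 0.97) and Nfasc (r = 0.89), scatter more widely for Prx and Pmp22 (0.45 and 0.61), and fall for Cnp and Mbp (−0.74 and −0.71).

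The partners of gliomedin at the node differed from each other. Nfasc had r = 0.89 with Gldn (p = 1e-05, the smallest the permutations can give; rho = 0.89, p = 1e-05; limma adjusted p = 1.11e-05), and r was 0.91 without control replicates 3 and 4. The r of 0.89 was exceeded by 271 genes. Nrcam had r = 0.02 (p = 0.943; rho = −0.02, p = 0.946; permutation; limma adjusted p = 0.963). The counts of Nfasc were 69.9, 164, 253, 478 and 123 in control and 82.6, 74.6, 48.0, 59.97 and 12.5 in STING-MSC joints, and 3 of 5 STING-MSC joints lay under every control joint. Its log2 fold change against control was −1.89 ± 0.74 (limma, unadjusted p = 0.0195, adjusted p = 0.364; exact permutation test, p = 0.0238). Nrcam, at 42.2 to 94.0 over all joints, had one of 0.22 ± 0.20 (limma adjusted p = 0.686).

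In control replicate 3, which had the second highest Gldn count, 1258, the other nerve genes lay on both sides. Its counts of Prx (160) and Cadm4 (40.2) were the lowest of the control joints, and those of Sox10 (22.6), Pmp22 (3345) and Nfasc (253) were the second highest.

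By list, the Schwann cell regulators held the largest count of genes rising with Gldn among the nerve lists, 6 of 13 measured with 0 falling and a median r of 0.49, where 21.3% of all other genes rose and 19.1% fell and their median r was 0.04. They were Egr2, Ngfr, Lgi4, Dhh, S100b and Cdh19, with r from 0.58 to 0.77. The r was positive for 8 of the 13, and Scn7a (0.49) and Foxd3 (0.20) did not pass the test. It was negative, also without passing, for Pou3f1 (−0.49), L1cam (−0.22), Adgrg6 (−0.19), Erbb3 (−0.16) and Ncam1 (−0.06). Lgi4 is a secreted Schwann cell signal needed for axon sorting, S100b a calcium-binding protein used as a Schwann cell marker and also made by chondrocytes, and Dhh a ligand by which Schwann cells shape the nerve sheath. Of 9 myelin protein genes, 1 rose (Tspan2, r = 0.81) and 1 fell (Sh3tc2, r = −0.70), with a median r of 0.16. Of 14 node and internode genes, 4 rose (Cadm2, Nfasc, Cntn2 and Cntnap1, r from 0.73 to 0.93) and 1 fell (Kcna2, r = −0.67), with a median r of 0.30. Of 7 axon and neuron genes, Stmn2 (r = 0.83) and Tubb3 (r = 0.70) rose and Nefh, a neurofilament subunit, fell (r = −0.79). The shares that rose were 46.2% of the regulators, 11.1% of the myelin protein genes and 28.6% each of the node and axon lists, so those of the last 3 lists lay near or under the share of all genes. These genes are named for passing the test, after their values were seen. Between groups, limma called 0 genes of these 4 lists at the adjusted threshold.

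The genes with the smallest unadjusted p of each nerve list in a treated group against control were as follows. In STING-MSC joints they were Drp2 (log2 fold change −0.48, limma adjusted p = 0.367), which joins periaxin in a complex at the Schwann cell membrane, Egr2 (−1.12, limma adjusted p = 0.315), the activator of myelin genes that immune cells also induce, Kcna1 (−1.09, limma adjusted p = 0.307), a juxtaparanodal potassium channel, and Tubb3 (−1.39, limma adjusted p = 0.394), a neuronal tubulin. In MSC joints they were Drp2 (−0.31, limma adjusted p = 0.666), L1cam (0.38, limma adjusted p = 0.331), Cntn2 (−2.75, limma adjusted p = 0.472) and Tubb3 (−1.58, limma adjusted p = 0.470). In TLR3-MSC joints they were, for the 3 lists other than myelin proteins, L1cam (0.18, limma adjusted p = 1.00), Cadm3 (0.56, limma adjusted p = 1.00) and Uchl1 (−0.23, limma adjusted p = 1.00). None passed the adjusted threshold. The median log2 fold change in STING-MSC against control was −0.32 over the myelin protein genes, −0.33 over the Schwann cell regulators, −0.05 over the node and internode genes and −0.25 over the axon and neuron genes, beside 0.01 over all genes. Lists of other genes were as low or lower: synovial fibroblast −0.875, immediate-early −0.604, endothelial −0.514, chondrocyte −0.428, osteoblast −0.32 and epidermis −2.07. The skeletal muscle (0.0447), macrophage (0.00848), neutrophil and marrow (0.495) and adipocyte (0.574) medians lay above 0.

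**Figure D4:**
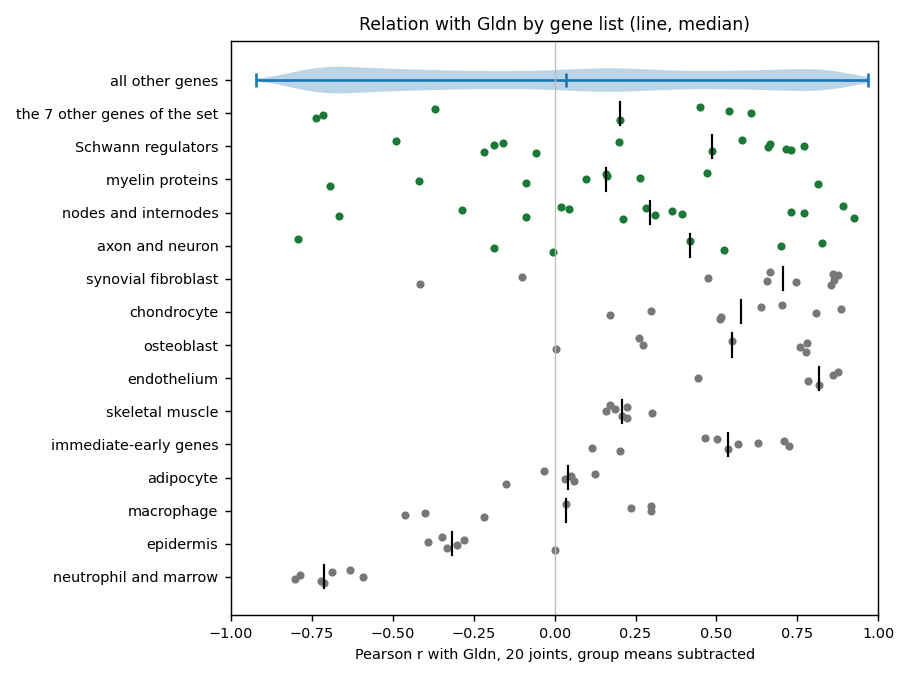
Pearson r with Gldn across 20 joints, group means subtracted, for each gene (point) of the nerve lists (green) and of the lists of other cell types (grey), with a line at each list's median; the violin shows the 14792 other genes, median 0.04. The nerve lists spread from −0.79 to 0.93, the endothelial median is 0.82 and every neutrophil and marrow gene lies under −0.59.

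The 10 genes most like Gldn stood in none of the nerve lists used here. Over 20 joints with group means subtracted, the 10 highest r were those of Fbln2 (0.97), Atxn1l (0.97), Pxdn (0.96), Thbs4 (0.96), Lrfn4 (0.96), Pcdhb17 (0.96), Hs2st1 (0.96), Lpp (0.95), Hspg2 (0.95) and Tacr1 (0.95). Fbln2 (fibulin-2), Thbs4 (thrombospondin-4) and Hspg2 (perlecan) encode matrix proteins, Pxdn an enzyme that crosslinks basement membrane, and Tacr1 the receptor of substance P. Fbln2 counts ran from 862 to 14160, and those of Thbs4 from 1776 to 35340. The joints share their dissection and their library with every gene compared, and these r are a description.

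The genes most like Prx were others, Map3k13 (r = 0.87), Ak3 (0.86), Lhx6 (0.85), Zfyve1 (0.82), Rbsn (0.81), Klhl4 (0.80), Nr2f2 (0.80), Ccdc152 (0.80), Npr1 (0.80) and Morf4l1 (0.80). Lhx6 and Nr2f2 are transcription factors, and Npr1 is a receptor of natriuretic peptides. No gene stood in the 10 of both Gldn and Prx.

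Markers of other cell types moved with Gldn from joint to joint, and their part in its values was not tested. Of 10 synovial fibroblast markers, 7 rose with Gldn and 0 fell (median r 0.71), as did 4 of 5 endothelial (0.82), 4 of 8 chondrocyte (0.57), 4 of 7 osteoblast (0.55) and 5 of 9 immediate-early genes (0.54), beside 21.3% of all genes. All 7 neutrophil and marrow genes fell as Gldn rose, with r from −0.80 to −0.59, beside 19.1% of all genes. None of 7 macrophage, 7 skeletal muscle, 6 adipocyte and 6 epidermis markers passed the test in limma. As a summed count, the endothelial list had r = 0.85 with Gldn (p = 8e-05; rho = 0.83, p = 0.00017; permutation; 0.00450 adjusted over 120 relations of the 8 genes with list sums and library size) and the Schwann cell regulators r = 0.71 (p = 0.00974; rho = 0.73, p = 0.00518; permutation; adjusted 0.0417), 0.86 and 0.56 without control replicates 3 and 4. The osteoblast sum had r = 0.77 (p = 0.00135; rho = 0.76, p = 0.00204; permutation; adjusted 0.0135), the chondrocyte sum 0.75 (p = 0.00244; rho = 0.77, p = 0.00159; permutation; adjusted 0.0153) and the synovial fibroblast sum 0.69 (p = 0.00093; rho = 0.77, p = 0.00039; permutation; adjusted 0.0131), 0.65, 0.68 and 0.67 without those 2 joints. Their r were as high as that of the Schwann cell regulators or nearly so. Col1a1 made up 89.9% of the mean osteoblast sum. The immediate-early sum had r = 0.62 (p = 0.0155; rho = 0.63, p = 0.0152; permutation; adjusted 0.0517; 0.54 without those 2 joints). The summed myelin proteins had r = 0.33 (p = 0.207; rho = 0.23, p = 0.402; permutation; adjusted 0.331). Gldn had r = −0.00 with the number of reads of the library (p = 0.995; rho = 0.00, p = 0.998; permutation).

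The group medians of these summed markers also differed, though each treated group overlapped control in range. The sums were not tested between groups. For the genes of the 3 lists that follow, limma called 0 against control at the adjusted threshold. The summed synovial fibroblast markers had a median of 273040 in control (172180 to 600150), 199260 in MSC (25447 to 500480), 331100 in TLR3-MSC (223960 to 465680) and 191440 in STING-MSC joints (52287 to 223210). The endothelial sum had a median of 9810 in control (6928 to 12168), 7783 in MSC (6270 to 11616), 6502 in TLR3-MSC (6114 to 9764) and 6242 in STING-MSC joints (6034 to 8512). The neutrophil and marrow sum had a median of 464330 in control (376330 to 671280), 775410 in MSC (536070 to 914550), 597420 in TLR3-MSC (502630 to 777590) and 719270 in STING-MSC joints (538420 to 836240). Skeletal muscle genes summed to between 789200 and 3286800 in single joints, so the samples held muscle RNA. No joint was at 0 for the marker lists as sums. The part of these differences in the values of the 8 genes was not tested.

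Among themselves the 8 genes fell into separate directions. Mbp and Cnp rose together (r = 0.77, p = 0.00012; rho = 0.79, p = 0.0001; permutation; adjusted over 28 pairs 0.00280 for both), as did Prx and Pmp22 (r = 0.72, p = 0.00425, adjusted 0.0238; rho = 0.53, p = 0.0317, adjusted 0.0784; permutation) and Prx and Cadm4 (r = 0.59, p = 0.0177, adjusted 0.0484; rho = 0.62, p = 0.00619, adjusted 0.0347; permutation). Mag had r = 0.61 with Cnp and 0.59 with Mbp (permutation, adjusted p = 0.0484 for each; adjusted 0.0688 and 0.0784 by rho of 0.58 and 0.51). Pmp22 fell as Mbp rose (r = −0.65, p = 0.00137, adjusted 0.00959; rho = −0.65, p = 0.00414, adjusted 0.0290; permutation). Without the 2 joints farthest from the median of the first gene of each pair, r was 0.77 for Mbp with Cnp, 0.51 for Prx with Pmp22, 0.53 for Prx with Cadm4, 0.61 for Mag with Cnp, 0.43 for Mag with Mbp and −0.69 for Pmp22 with Mbp. Every r of Mag, Mbp or Cnp with Gldn, Sox10, Pmp22, Prx or Cadm4 was negative.

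Beside the marker sums the same sides appeared. Pmp22 had r = 0.94 with the summed synovial fibroblast markers (p = 5e-05; rho = 0.85, p = 0.00011; permutation; adjusted 0.00450), and 0.81 without MSC replicate 4 and STING-MSC replicate 5. Prg4, which encodes lubricin, made up 87.6% of the mean sum and had r = 0.94 with Pmp22 by itself, and the other genes of the list ran from 0.08 (Dpp4), 0.51 (Tnfaip6) and 0.59 (Clic5) to 0.95 (Pdgfra). Cnp had r = 0.78 (p = 0.00036; rho = 0.80, p = 0.00019; permutation; adjusted 0.00864), Mag 0.75 (p = 0.00085; rho = 0.71, p = 0.00270; permutation; adjusted 0.0131) and Mbp 0.73 (p = 0.00109; rho = 0.76, p = 0.0003; permutation; adjusted 0.0131) with the neutrophil and marrow sum. With 2 joints left out these were 0.72, 0.69 and 0.69. Gldn had r = −0.74 with that sum (p = 0.00228; rho = −0.71, p = 0.00299; permutation; adjusted 0.0152) and Prx −0.71 (p = 0.00176; rho = −0.67, p = 0.00430; permutation; adjusted 0.0141). Cadm4, the internodal adhesion gene, had its highest r with the summed node and internode genes (0.66, p = 0.00217; rho = 0.64, p = 0.00530; permutation; adjusted 0.0152). The part of cell makeup in these relations was not tested.

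**Figure D5:**
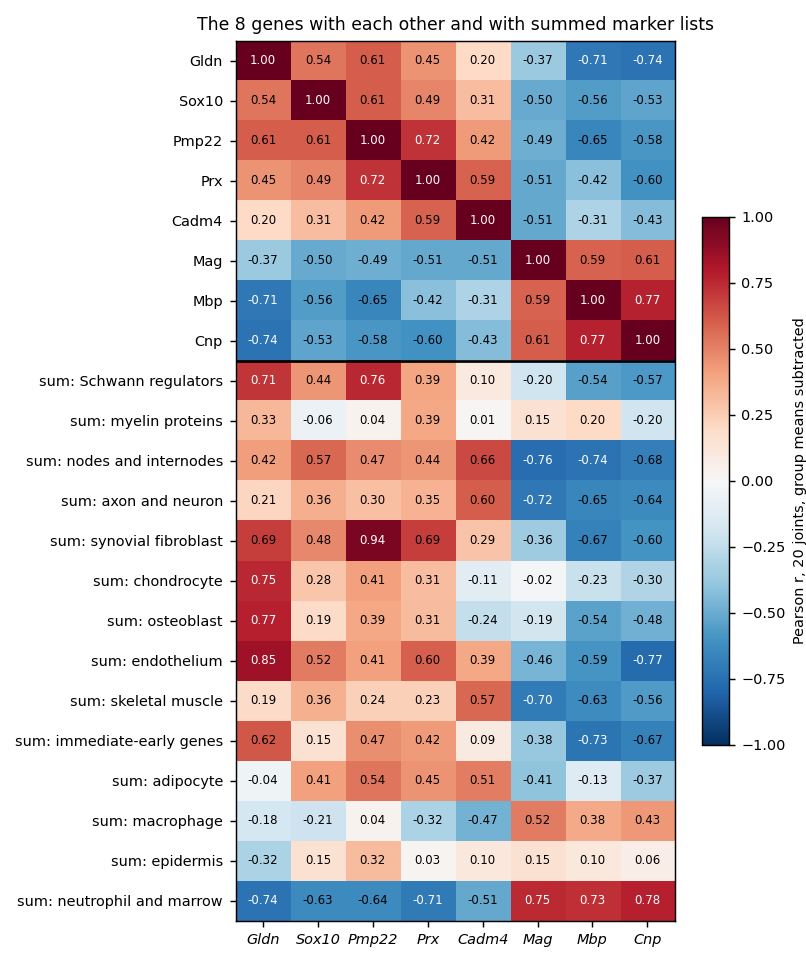
Pearson r (colour and printed value) of the 8 genes with each other (upper block) and with the summed counts of 14 marker lists (lower block), 20 joints, group means subtracted. Gldn, Sox10, Pmp22, Prx and Cadm4 are positive with each other and negative with Mag, Mbp and Cnp, which are positive with the neutrophil and marrow sum (0.75, 0.73 and 0.78).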

How the data were processed

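RNA of 20 joints was sequenced as polyA libraries (TruSeq). Per the labels and the study's methods, the authors aligned reads to GRCm39 with STAR 2.7.3a, counted them with HTSeq and normalized with DESeq2's median ratio; the deposited signal values are these normalized counts. The table held 14793 genes, with the lowest mean at 9.40, so the minimum mean of 5 removed 0. Values were whole multiples of 1 read (99.84% to 99.92% within 0.1), and whole reads were recovered from them. Differences were tested with limma 3.58.1 (trend) on log2(value + 1) over all 20 joints, which understates changes of low genes, with Benjamini-Hochberg adjustment over all genes and a threshold of 0.05, and on recovered reads with edgeR 4.0.16 and DESeq2 1.42.0 as alternatives. The relation with Gldn was a limma slope with group as a term. Correlations used 100000 permutations within groups and exact tests all 5 against 5 regroupings, two-sided. Exon lengths came from GENCODE. R 4.3.3, Python 3.11.15 and scipy 1.17.1 were used, and the fits were tested on simulated data. Named were the 8 genes, Nfasc and Nrcam, the gene of smallest p per nerve list and treated group, and the 10 genes most like Gldn and Prx, and some genes that this rule names are not reported here. The genes and lists were chosen with earlier results of these data known. The labels give no batch. P-values rest on 5 mice per group.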

Additional observations from a re-analysis of the deposited data

Results flagged for a closer look

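Cadm4 in control replicate 3, with a normalized count of 40.2, stood apart below the other 4 control joints, its gap taking 0.772 of the group's range of log2 values (Dixon's criterion). It was the 1 gap found in 32 groups of 5 joints, and chance alone gives about 1 in 20 groups.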

How the results depend on the processing

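In limma none of the 8 genes was called between groups. Sign changes were not counted in STING-MSC against MSC, nor for Gldn in STING-MSC against TLR3-MSC. Elsewhere 47 were found with 1 joint left out and 10 under the other settings. The log2 fold changes numbered 960 and 426, the uncounted ones included. In STING-MSC against MSC, values with 1 joint left out lay on both sides of 0 for Sox10 (−0.31 to 0.44), Pmp22 (−0.44 to 0.16) and Cnp (−0.12 to 0.11). Quantile normalization turned Sox10 in MSC and in STING-MSC against control (0.016 and 0.15 on the log2 scale), Cadm4 in STING-MSC against control and against TLR3-MSC (0.083 and 0.010) and Mbp in TLR3-MSC against MSC (−0.0025). It left 1 gene, not 2, with an unadjusted p of at most 0.05 in STING-MSC against control. edgeR turned Pmp22 in MSC against control (0.017), Mag in TLR3-MSC against control (0.012) and Gldn in TLR3-MSC against MSC (−0.29), and DESeq2 turned the latter pair (0.0040 and −0.29). Gldn in STING-MSC against control was called in DESeq2 (−4.41), where 85 genes of all were called, beside 0 in limma and edgeR. In MSC against control DESeq2 called 0.73% of genes and edgeR 0.101%, beside 0.00676% in limma. The correlation of Gldn with Prx was called without subtraction of group means (r = 0.59), and that with Sox10 after quantile normalization (0.54). The cause was not tested for any of these.

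With 1 joint left out, log2 fold changes in MSC against control ran from −0.031 to 0.25 for Mag, −0.62 to 0.15 for Sox10, −0.40 to 0.20 for Pmp22, −0.032 to 0.11 for Mbp and −0.023 to 0.21 for Cnp. In TLR3-MSC against control they ran from −0.14 to 0.10 for Mag, −0.076 to 0.50 for Sox10, −0.024 to 0.11 for Mbp, −0.14 to 0.016 for Cnp and −0.21 to 0.20 for Cadm4. In STING-MSC against control they ran from −0.53 to 0.19 for Sox10, −0.00068 to 0.17 for Cnp and −0.32 to 0.10 for Cadm4. In TLR3-MSC against MSC they ran from −0.074 to 1.30 for Gldn, −0.18 to 0.14 for Prx, −0.28 to 0.013 for Mag, −0.055 to 0.55 for Pmp22 and −0.062 to 0.082 for Mbp, and in STING-MSC against TLR3-MSC from −0.27 to 0.048 for Cadm4. The count of genes at this unadjusted threshold ran from 0 to 1 in MSC against control and from 1 to 2 in STING-MSC against control. Gldn in STING-MSC against control ran from −3.99 to −2.58, with an unadjusted limma p from 0.00158 to 0.0347. The r with Gldn ran from 0.30 to 0.62 for Prx, 0.42 to 0.62 for Sox10 and 0.51 to 0.68 for Pmp22.

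Same-numbered joints had r on both sides of 0 (from −0.658 to 0.464 over 30 pairs, group means subtracted). This range cannot tell whether the numbers pair joints, and the main fits used no pairing. With the replicate number as a block, Gldn in STING-MSC against control had an adjusted limma p of 0.379, and r with Gldn was 0.61 for Pmp22 and −0.72 for Cnp, with no call changed. With 5 joints per group, the spread of Gldn limits its comparisons, and the 3 reads of Sox10 in the lowest library limit single joints.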
